A study of Mus musculus with 12 samples.

Results

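Oxidative phosphorylation (OXPHOS) genes encode the respiratory chain and the ATP synthase of the mitochondrial inner membrane. Complex I takes electrons from NADH, complex II takes them from succinate, complex III passes them to cytochrome c, and complex IV hands them to oxygen. The proton gradient built by complexes I, III and IV drives the ATP synthase. Most subunits are encoded in the nucleus and imported, and neurons draw much of their ATP from this pathway. Where a nuclear OXPHOS transcript ends is set by cleavage and polyadenylation at a polyA site (PAS), and a gene with several PASs can make mRNAs with different 3′UTRs or, with a PAS in an intron, different coding regions.

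The genes described here were those of the 3′READS PAS list whose symbol begins with 1 of 9 prefixes, namely Nduf, Uqcr, Sdh, Atp5, Cox4, Cox5, Cox6, Cox7 and Cox8. The rule found 91 of 16627 listed genes, with 187 of 56204 PAS entries. Of these genes, 82 encode structural subunits of the complexes. Another 6, named Ndufaf or Sdhaf, encode assembly factors of complexes I and II. The remaining 3 carry a prefix but are not subunits: Cox4nb, which encodes a subunit of the endoplasmic reticulum membrane complex and is now named Emc8, and Atp5s and Atp5sl, now named Dmac2l and Dmac2.

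The PAS list came from acute hippocampal mini-slices of 3 month old wild-type C57BL/6 mice, from which the dentate gyrus had been trimmed. Chemical long-term potentiation (LTP) was induced with 50 uM forskolin followed by forskolin with 30 mM KCl and 10 mM Ca2+, and control slices from the same animals received 0.2% DMSO. Collection followed 1 hr or 3 hr after treatment, giving 4 groups of 3 replicates and 12 libraries in all. The 12 columns of read counts carry names that match no label of a sample, so they were not used here, and the LTP and control groups were not compared. A slice holds neurons, glia and vascular cells together, and the list does not say in which of them a site was used.

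Each entry of the list gives a gene, a position and a label for the place of the PAS in the gene. A PAS in the 3′-most exon is labelled exon3, and 1 downstream of the annotated end of that exon is labelled exon3ext. Intronic PASs are labelled intron_Comp where the intron becomes part of a composite terminal exon, and intron_Skip where they end a terminal exon that is otherwise skipped. A UA site lies upstream of the gene on the antisense strand. The single-exon gene Sdhaf1 has its site labelled exon53. Positions are those of the list, in mm9. Where an interval follows a share, it is the 95% Wilson interval, which covers counting error over genes only. Other shares are given without one. No comparison here is a test, since the list is 1 set of sites with no replicates.

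Paralogs that encode the same or closely related subunits differed in the letters around their polyA signal, the hexamer that directs cleavage a short way downstream of it. The last 30 bases of the annotated transcripts of 2 such sets, the c subunit genes of the ATP synthase and the Cox7a genes of complex IV, are shown as examples of paralogs with 1 exon3 PAS each. They were chosen after their ends were seen, since each holds a signal within these 30 bases, and paralogs of other sets do not all hold one there. The annotated end was not matched to the listed PAS, since the list uses another build. The Atp5g1 transcript has an annotated 3′UTR of 4255 nt, against 153 nt in Atp5g2 and 149 nt in Atp5g3. Its end may thus lie far from the 1 listed PAS of Atp5g1, and the signal shown may not belong to that PAS. The bases are from the GENCODE transcripts on GRCm38, 5′ to 3′ on the gene's strand, each in the 3′UTR of the last exon, with the signal in capitals.
Atp5g1, chr11:96068852-96068881, minus strand: ataAATAAAttttttaaaaaagctttaaaa
Atp5g2, chr15:102662864-102662893, minus strand: agaagacaAATAAAtactgtattaataaga
Atp5g3, chr2:73908447-73908476, minus strand: cagtcatttcATTAAAgatgaaaactttaa
Cox7a1, chr7:30186001-30186030, plus strand: AATAAAtatgctaatctcttgagaacccaa
Cox7a2, chr9:79755361-79755390, minus strand: tcacttgagAATAAAttcctggtaatacca
Cox7a2l, chr17:83501918-83501947, minus strand: ggAATAAAcactggaatgaagatgttttta
The signal began 20 bases before the annotated end in Atp5g3, where it was the variant ATTAAA, and 22 bases before it in Atp5g2. In the Cox7a genes, AATAAA began 30, 21 and 28 bases before the end in Cox7a1, Cox7a2 and Cox7a2l.

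Over all 91 OXPHOS genes, AATAAA was present in the last 40 nt of the annotated transcript in 59 (64.8%), and ATTAAA without AATAAA in 16 (17.6%). The other 16 (17.6%) held neither hexamer. Among all listed genes with an annotated transcript, AATAAA was present in 61.9%, ATTAAA without it in 14.1% and neither in 23.97%. In ribosomal protein genes these shares were 70.2%, 13.1% and 16.7%, and in proteasome genes 72.9%, 10.4% and 16.7%. A missing hexamer says only that these letters were not in the last 40 nt of that transcript.

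The OXPHOS genes found by the prefixes were sparse in listed PASs. This did not hold for the 47 OXPHOS genes outside the rule, described below, of which 12 (25.5%) had a single PAS. Within the rule, a single PAS was listed for 56 of the 91 genes (61.5%, interval 51.3 to 70.9), against 32.9% of all listed genes. Apart from Sdhaf1, each of these 56 had its site in the 3′-most exon. A further 14 genes had 2 PASs and 9 had 3, and the longest series were the 9 PASs of Ndufa10 and the 9 of Cox8a. Genes with 9 or more PASs made up 7.30% of the whole list and 2.20% of the OXPHOS genes.

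**Figure D1:**
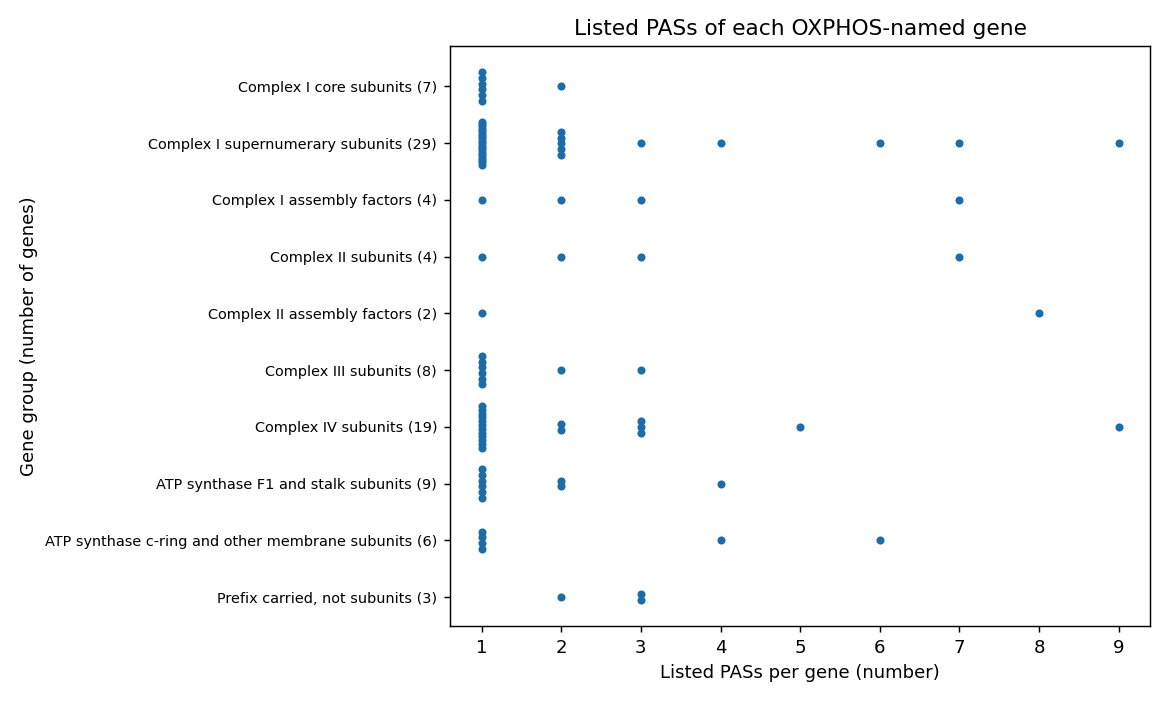
Listed PASs per gene (horizontal axis, number) for the OXPHOS genes by complex (vertical axis, with the number of genes in brackets). Each point is 1 gene. Most genes of complexes I, III and IV and of the ATP synthase sit at 1 PAS, and Ndufa10 and Cox8a lie at 9.

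Complex I core subunits carry the flavin and the iron-sulfur clusters along which electrons pass. All 7 nuclear core genes were listed, with 8 PASs between them. Ndufs1, Ndufs3 and Ndufv1, the last of which binds the flavin that accepts electrons from NADH, had a single exon3 PAS each. Ndufv2 had 2 exon3 PASs, at 66428780 and 66428557 on chromosome 17, which lay 223 nt apart. None of the core genes had an intronic or a UA site.

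The supernumerary subunits of complex I surround this core. Their 29 listed genes had 58 PASs, with 19 genes at 1 PAS. Ndufa10 had 9 PASs, of which 7 were intronic and 2 were exon3 sites 35 nt apart. Ndufab1, the mitochondrial acyl carrier protein, had 7. Its exon3 sites, 3 in number, fell within 98 nt, another 3 were intron_Skip sites, and 1 was a UA site. Ndufs5 had 6 PASs on chromosome 4 and was the only OXPHOS gene whose sites were also listed under another gene. All 6, from the UA site at 123395732 to the exon3ext site at 123389915, appeared under BC002163 as well, so that they cannot be given to one of the pair from the list.

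Among the complex I assembly factors, which help to build the complex without staying in it, Ndufaf2 had 7 PASs, Ndufaf4 had 3, Ndufaf1 had 2 and Ndufaf3 had 1. The other named assembly factors of this family are listed under older clone names and were outside the rule.

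Complex II is the smallest complex and all of its subunits are nuclear. Sdhb, which holds the iron-sulfur clusters, had 1 PAS. Sdhc, a membrane anchor, had 2 exon3 PASs 47 nt apart, and Sdha, the flavoprotein that oxidizes succinate, had 3 spread over 561 nt. Sdhd, the other membrane anchor, had 7 PASs. Of these, 5 were exon3 sites within 155 nt on chromosome 9, between 50404602 and 50404447, and 2 were intronic. Sdhaf2, which attaches the flavin to Sdha, had 8 PASs, and its 6 exon3 sites spread over 2419 nt. The 3′-most exon had 2 or more PASs in 3 of the 4 subunit genes (75%, interval 30.1 to 95.4). In the complex I core this was so in 1 of 7 genes (14.3%, interval 2.57 to 51.3). The share was 49.5% of all listed genes with an exon3 PAS. Both sets are small and their intervals overlap. Neighbouring exon3 sites of Sdhc and of Sdhd all lay under 100 nt apart, so merging such sites would leave 1 in each.

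Complex III had 8 listed genes with 11 PASs, all of them exon3 sites. Uqcrc2, a core protein, had 3 PASs over 254 nt. Uqcrfs1, the Rieske iron-sulfur protein, had 2 that lay 75 nt apart. The other 6 genes, Uqcr10, Uqcr11, Uqcrb, Uqcrc1, Uqcrh and Uqcrq, had 1 each.

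Complex IV subunits include isoforms that differ by tissue, and some of these paralogs differed in their listed PASs. Cox8a, the widely expressed isoform, had 9 PASs on chromosome 19: 6 exon3 sites between 7289897 and 7289639, a stretch of 258 nt, and 3 UA sites. The muscle isoform Cox8b had 1 PAS. Cox7b, on chromosome X, had 5 exon3 sites, the first 4 of them within 146 nt and the last 509 nt further downstream. Its paralog Cox7b2, known from testis, had 3 intronic sites and no exon3 site. Cox6b1 had 3 PASs, of which 1 was exon3, 1 intronic and 1 UA, and Cox6b2 had 1. Cox6a1 had 1 PAS and Cox6a2 had 2, its extra site being a UA site. Other pairs did not differ in number: Cox4i1 and Cox4i2 had 1 PAS each, as did Cox7a1, Cox7a2 and Cox7a2l, and also Ndufa4 and Ndufa4l2, which belong to complex IV despite their names.

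The ATP synthase couples a rotating membrane ring to a catalytic head. In the head and stalk, 9 genes had 14 PASs. Atp5b, the catalytic beta subunit, had 4, which were 1 intronic, 2 exon3 and 1 exon3ext, and Atp5a1, the alpha subunit, had 2 exon3 PASs 352 nt apart. In the membrane part, the 6 genes within the rule had 14 PASs, and each had 1 exon3 PAS. The c-ring paralogs encode the same mature protein behind different import signals. Atp5g1 and Atp5g3 had 1 PAS each, whereas Atp5g2 had 6, made up of 3 UA sites, 2 intronic sites and 1 exon3 site. Atp5l, subunit g, had 2 intronic sites, 1 exon3 site and 1 exon3ext site.

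Other housekeeping machines of many small subunits were set beside the OXPHOS genes. Of the 91 OXPHOS genes, 35 had 2 or more PASs (38.5%, interval 29.1 to 48.7). The share was 69.0% (58.5 to 77.9) in 84 ribosomal protein genes, 50.0% (36.4 to 63.6) in 48 proteasome genes and 67.1% (66.4 to 67.8) in all listed genes. The OXPHOS interval thus lay below those of the ribosomal protein genes and of the whole list, and overlapped that of the proteasome genes. Among the structural subunits alone the share was 34.1%.

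**Figure D2:**
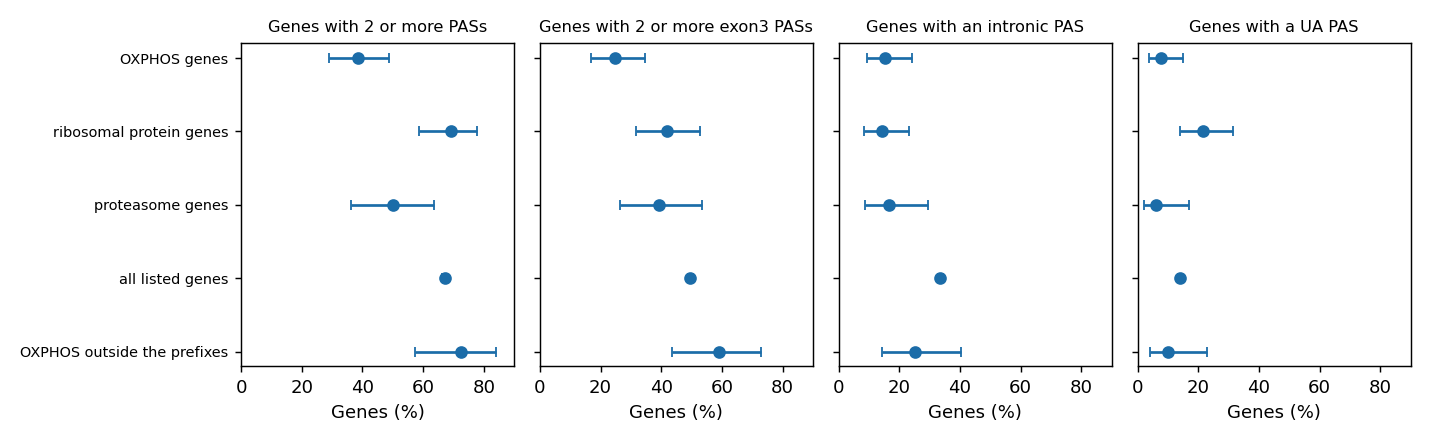
Share of genes (horizontal axes, %) with 2 or more PASs, with 2 or more exon3 PASs, with an intronic PAS and with a UA PAS, for 5 gene lists (vertical axis). Points are shares and bars are 95% Wilson intervals, which are narrower than the point for all listed genes. OXPHOS genes are at 38.5% in the first panel and all listed genes at 67.1%.

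The prefixes did not take in every gene of the pathway. A list of OXPHOS genes whose names lack the prefixes, such as cytochrome c and assembly factors of complex IV, had 40 members in the table, and 72.5% of them (57.2 to 83.9) had 2 or more PASs. Usmg5, a gene of the ATP synthase now named Atp5md, was counted among these 40. It had 2 exon3 PASs and 1 intronic PAS. Another 7 genes now carry a prefix but stand in the table under older names, among them Acn9, now Sdhaf3. Over these 47 genes together the share was 74.5% (60.5 to 84.7). Cycs, cytochrome c, had 6 exon3 PASs, and Cox15, needed to make the heme of complex IV, had 7. Ecsit, a complex I assembly factor, had 9 PASs. Cyc1, the cytochrome subunit of complex III, and Surf1, an assembly factor of complex IV, had 1 each. None of the 13 mitochondrially encoded subunits was found in the list under its symbol.

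Tandem PASs in the 3′-most exon can give 3′UTRs of different length. Of the 89 OXPHOS genes with an exon3 PAS, 22 had 2 or more (24.7%, interval 16.9 to 34.6). The share was 42.0% in ribosomal protein genes, 39.1% in proteasome genes and 49.5% in all listed genes. Cox8a and Sdhaf2 had the most, with 6 each, followed by Cox7b and Sdhd with 5 each.

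The distance between the outermost exon3 PASs was short in most of these 22 genes. Its median was 238.5 nt (95% order-statistic interval 98 to 655), against 817 nt (781 to 853) over the 7465 listed genes with such a distance. The medians of ribosomal protein and proteasome genes were 229.5 and 259 nt. The distance passed 1000 nt in 3 of the 22 genes (13.6%), against 44.1% in the whole list. These 3 were Cox4nb at 3919 nt, Ndufaf4 at 2785 nt and Sdhaf2 at 2419 nt. None of them encodes a structural subunit. The next largest distances were those of Ndufs4 at 845 nt, Atp5s at 822 nt, Cox7b at 655 nt, Sdha at 561 nt, Atp5a1 at 352 nt, Ndufb5 at 329 nt and Cox8a at 258 nt. At the short end, Atp5sl and Cox5b had a pair of exon3 PASs 25 nt apart, close to the 24 nt within which the authors merged sites.

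Neighbouring exon3 PASs of an OXPHOS gene were close together as well. Over 43 neighbouring pairs the median distance was 75 nt, and 24 pairs (55.8%) were under 100 nt apart. Over the whole list these values were 259 nt and 28.5%. In ribosomal protein genes they were 117 nt and 48.2% over 56 pairs, and in proteasome genes 153 nt and 46.4% over 28 pairs. Pairs of the same gene share their 3′UTR, and Cox8a, Sdhd, Cox7b and Sdhaf2 gave many of them.

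**Figure D3:**
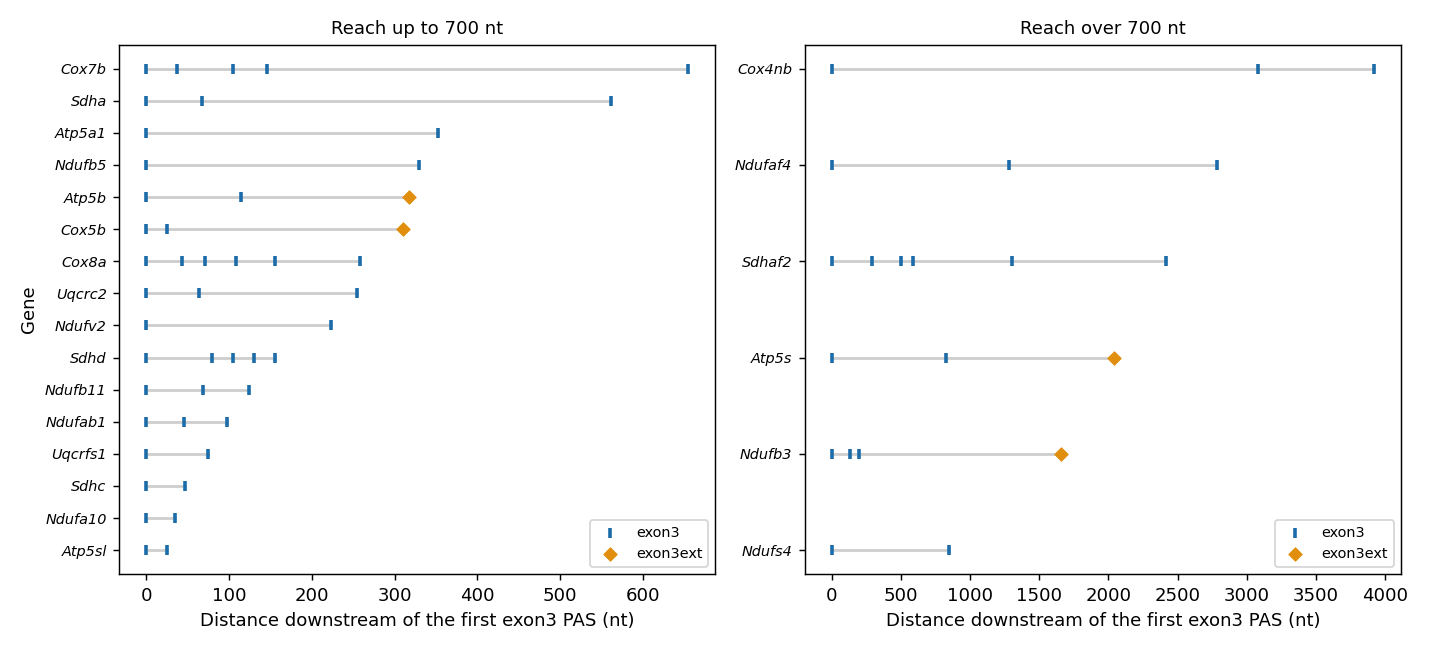
Position of each exon3 PAS (bars) and exon3ext PAS (diamonds) downstream of the gene's first exon3 PAS (horizontal axes, nt) for the 22 OXPHOS genes with 2 or more exon3 PASs (vertical axes). The left panel holds the genes with the shorter reach, up to the 655 nt of Cox7b, and the right panel the others. Cox4nb reaches 3919 nt and the 6 exon3 sites of Cox8a lie within 258 nt.

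Annotated 3′UTRs of OXPHOS genes were short. All 91 matched a GENCODE M21 gene, and the median 3′UTR of 1 principal transcript a gene was 189 nt (quartiles 117.5 and 458), against 950 nt over all listed genes that matched. Ribosomal protein genes were shorter, at 91 nt, and proteasome genes longer, at 242 nt. The median was 85 nt in the core subunits of complex I, 137 nt in its supernumerary subunits, 199 nt in complex III and 189 nt in complex IV. Complex II stood at 783.5 nt over 4 genes. Single genes ran from 43 nt in Ndufa11 to 4255 nt in Atp5g1. OXPHOS genes were also compact in other respects, with a median coding length of 432 nt and 4 exons, against 1368 nt and 9 exons over the whole list.

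The share of genes with tandem exon3 PASs was therefore read within classes of annotated 3′UTR length. Here it was taken over all genes with an annotated transcript, including those without an exon3 PAS, unlike the shares above. Up to 250 nt, where 57 OXPHOS genes lay, 3 (5.26%) had 2 or more exon3 PASs, against 17.4% of 2730 other genes. These 3 were Ndufb11, Ndufb3 and Cox8a, with outermost exon3 PASs 124, 194 and 258 nt apart. Their annotated 3′UTRs were 96, 162 and 239 nt, so not all of these sites lie within them. The same held for Cox7b in a longer class, at 655 against 630 nt. Above 250 and up to 500 nt the share was higher in OXPHOS genes, at 6 of 13 (46.2%) against 29.1%, and above 500 and up to 1000 nt it was 8 of 13 (61.5%) against 41.4%. Over 2000 nt it was 5 of 7 (71.4%) against 68.8%. The lower share of OXPHOS genes in the whole list was thus not present in each class, and the classes above 250 nt hold few OXPHOS genes.

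**Figure D4:**
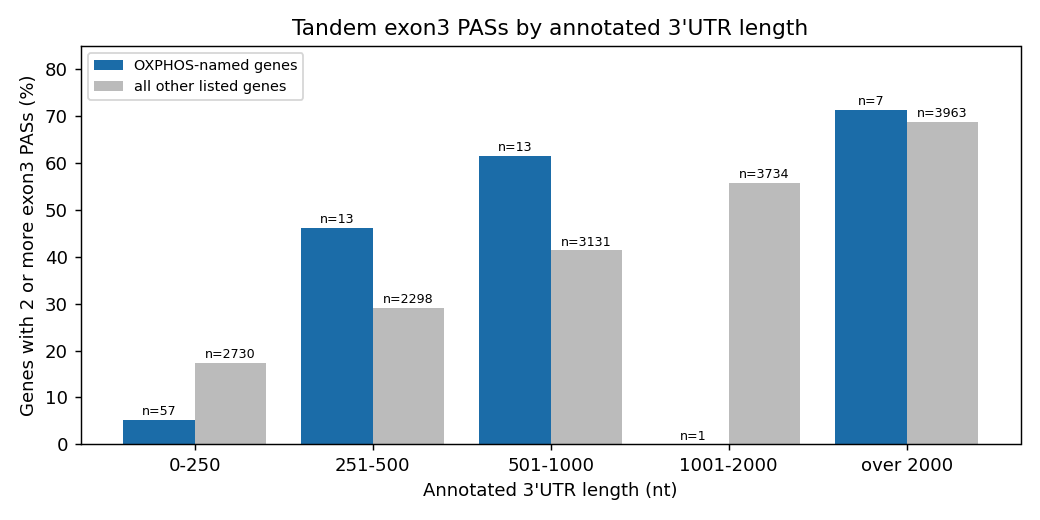
Share of genes with 2 or more exon3 PASs (vertical axis, %) by annotated 3′UTR length (horizontal axis, nt) in OXPHOS genes (blue) and all other listed genes (grey), with the number of genes above each bar. The OXPHOS bar is lower up to 250 nt (5.26% against 17.4%) and higher in the next classes, up to 1000 nt. The class that ends at 2000 nt holds 1 OXPHOS gene.

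Intronic PASs were listed in 14 of the 91 OXPHOS genes (15.4%, interval 9.39 to 24.2). The share was 14.3% in ribosomal protein genes, 16.7% in proteasome genes and 33.5% (32.8 to 34.2) in all listed genes. The 14 genes held 35 intronic PASs, of which 32 were intron_Comp and 3 were intron_Skip, and the 3 intron_Skip sites all lay in Ndufab1. Ndufa10 with 7 and Ndufaf2 with 6 held 13 of the 35 together. No gene of complex III and none of the complex I core had an intronic site.

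The distance of the intronic sites from the first exon3 PAS ran from 787 to 65985 nt, with a median of 6969 nt over 32 sites in the 13 genes that have both kinds. The 6 sites of Ndufaf2 fell between 65985 and 26431 nt upstream of its exon3 PAS on chromosome 13, and the 7 of Ndufa10 between 22208 and 6536 nt upstream of its first exon3 PAS on chromosome 1. Sdhaf2 had sites 21454 and 4376 nt upstream. Those of Ndufs5 lay between 5049 and 3819 nt upstream, and those of Ndufab1 between 2545 and 1892 nt. Atp5l had its pair 6611 and 3963 nt upstream, Sdhd 3772 and 2181 nt, and Atp5g2 2041 and 1966 nt. Atp5b had the site nearest to the gene end, 787 nt upstream.

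**Figure D5:**
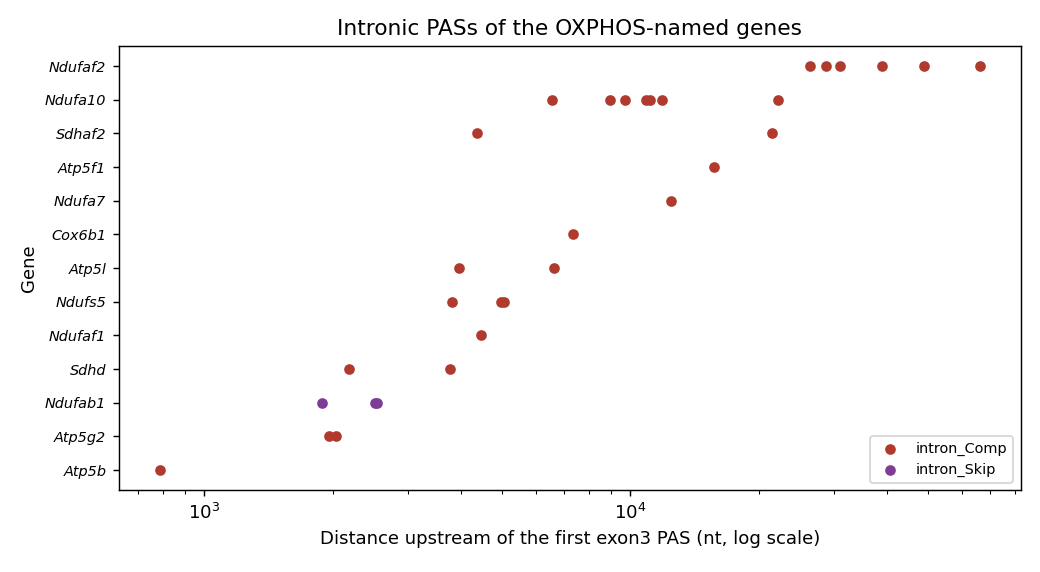
Distance of each intronic PAS upstream of the first exon3 PAS (horizontal axis, nt, log scale) in the 13 OXPHOS genes that have both kinds of site (vertical axis). Red points are intron_Comp sites and purple points intron_Skip sites. Distances run from 787 nt in Atp5b to 65985 nt in Ndufaf2, and Ndufab1 alone has intron_Skip sites.

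UA sites were listed for 7 OXPHOS genes (7.69%, interval 3.78 to 15.0), against 21.4% of ribosomal protein genes, 6.25% of proteasome genes and 13.8% of all listed genes. Atp5g2 and Cox8a had 3 each, and Ndufa12, Ndufab1, Cox6b1, Cox6a2 and Ndufs5 had 1 each. The nearest UA site of Cox8a lay 3252 nt upstream of its first exon3 PAS.

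Sites beyond the annotated end, exon3ext, were listed for 8 OXPHOS genes (8.79%, interval 4.52 to 16.4). The share was 29.8% in ribosomal protein genes and 4.17% in proteasome genes. In all listed genes it was 12.2%, which lies within the OXPHOS interval. The site farthest from the last exon3 PAS was that of Ndufb3, 1462 nt downstream. It was followed by those of Atp5s at 1219 nt, Cox5a at 618 nt, Cox5b at 285 nt and Atp5b at 203 nt.

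By label, 132 of the 187 OXPHOS entries (70.6%) were exon3 sites, against 55.7% of the whole list. The intron_Comp share was 17.1% against 23.9%, that of UA 5.88% against 7.11% and that of exon3ext 4.28% against 6.06%.

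Some OXPHOS genes end close to a gene on the other strand. Another gene's PAS on the opposite strand lay within 1000 nt of the last PAS of 13 genes (14.3%, interval 8.54 to 22.9), and this was so in 11.8% of all listed genes. In 5 of the 13 it lay within 100 nt, which is 5.49% of the 91 genes (2.37 to 12.2), against 3.75% of all listed genes, 9.64% of ribosomal protein genes and 6.25% of proteasome genes. The PASs of Ndufb10 and Rps2, a ribosomal protein gene, were 2 nt apart, and Ndufb7 and Tecr had PASs 72 nt apart. With UA sites and the sites Ndufs5 shares with BC002163 left aside, no PAS of another gene on the same strand lay within 1000 nt. The same-strand count was not made over all listed genes, so it is not read as a trait of OXPHOS genes.

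Promoters of OXPHOS genes are known to hold sites of nuclear respiratory factor 1 (NRF1) and of YY1. RefSeq promoter sequences on GRCm38.p6, from 250 bases before to 50 after the start, were found for 76 of the 91 genes, as 82 promoters, and were searched on both strands. The NRF1 letters GCATGCGC were present in 11 (13.4%), against 4.39% of the promoters of all listed genes. They were in 3 of 78 ribosomal protein promoters (3.85%) and 3 of 42 proteasome promoters (7.14%), which are small counts. The YY1 letters AAGATGGC were present in 12 (14.6%), against 3.63%, 10.3% and 7.14%. The 12 include both promoters of Atp5sl, which is not a subunit. The ETS letters CCGGAAG were in 23.2%, above the 14.1% of the promoters of all listed genes but below the 35.9% of ribosomal protein and 38.1% of proteasome promoters. The Sp1 letters GGGCGG were in 43.9%, against 56.8%, 60.3% and 52.4%. Among all 32851 promoters of the table, these shares were 2.71%, 2.75%, 8.86% and 35.7% for NRF1, YY1, ETS and Sp1. Promoters with the NRF1 letters included those of Atp5g2, Atp5l, Sdhb and Uqcrc1. A match is a description of the letters and not of binding.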

How the data were processed

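The authors prepared 3′READS+ libraries, mapped reads with Bowtie2 to mm9 per the submitters' processing notes (version not given in the sources used here), and merged PASs within 24 nt. The deposited table is 1 list of sites, and the PAS position per the file headers is an mm9 coordinate, not a score or a count. Its 12 columns of read counts match no label by name and were not used, so the depth of each library and the differences between groups were not analysed here.

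Genes were chosen by prefix. PASs were counted per gene and label, and distances were taken along the gene's strand. Signals and 3′UTR lengths came from GENCODE M21 (1 principal transcript a gene), promoters from RefSeq, both GRCm38; no position was converted between builds. Analyses used Python 3.11.15, pandas 2.3.3, numpy 2.4.6 and scipy 1.17.1, tested on simulated data. Genes named singly were those with the most PASs in each complex, the 10 largest exon3 distances, up to 10 genes with the most intronic or UA sites, the 5 farthest exon3ext sites, genes with shared sites, the complex I core, complex II and paralog sets. The genes and lists were chosen with earlier results of these data known. Examples in the neighbour, signal and promoter results were chosen after their values were seen. Not every gene of the core set is reported singly here.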

Additional observations from a re-analysis of the deposited data

How the results depend on the processing

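Of 20 values recomputed under another setting, 17 stayed inside the 95% interval of the reported value and 3 fell outside it. The share of OXPHOS genes with 2 or more PASs went from 38.5% to 24.7% when exon3 PASs alone were counted. The share with 2 or more exon3 PASs went from 24.7% to 15.7% when PASs at most 100 nt apart were merged. The share with an intronic PAS went from 15.4% to 1.10% when intron_Skip sites alone were counted, since Ndufab1 is the single gene with such a site. The median distance between outermost exon3 PASs ranged from 194 nt (structural subunits) to 439.75 nt (close PASs merged, 14 genes). The interval of the merged value was 180 to 2419 nt, which holds the 817 nt of the whole list. That 817 nt was taken without merging, so the short distance of OXPHOS genes was not shown under this setting. The longest annotated 3′UTR of each gene gave a median of 204 nt, and a window of 30 nt gave AATAAA in 58.2% of genes; both settings were chosen after seeing the data. No paired analysis was possible because no replicate number of the labels could be tied by name to a column of counts. The design itself is paired, with LTP and control slices from the same animals, and the read counts were not used here. A site listed with few reads counts as much as 1 with many, and a site that was not listed may have been too rare to be found.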
